A study of Mus musculus with 9 samples.

Results

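The genes described here are 39 genes of cell proliferation, and they were followed in whole lung of 3 mouse strains. A probeset of the array was taken for a gene where its annotated symbol was that gene's own, and 37 of the 39 genes had exactly 1 such probeset, out of 41345 probesets in all. Ccnb1, the main mitotic cyclin, had no probeset with its own symbol, and Ncapg, a condensin subunit, had only a probeset shared with a neighbouring gene, so neither was measured here. Of the 37 measured genes, 32 act in mitosis and 5 in DNA replication (Mcm2, Mcm3, Mcm5, Mcm6 and Tyms), and these groups were treated apart. None of the 39 genes lies on Chromosome 12, and together they lie on 16 chromosomes.

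Lungs of 3 CSS12, 3 BcA86 and 3 C57BL/6J mice were hybridized, with 1 array per mouse. CSS12 carries an A/J Chromosome 12 on the C57BL/6J background, and BcA86 is a recombinant congenic strain whose genome is mostly C57BL/6J with A/J segments on several chromosomes, part of Chromosome 12 among them. Both are hyperresponsive to inhaled methacholine, and C57BL/6J is the hyporesponsive strain. All mice were young adults housed free of listed pathogens, and no treatment is named for the mice whose lungs were hybridized. The labels give neither sex nor age for a single mouse. Each strain stands for its whole genotype, so a difference between strains cannot be given to 1 locus. Values are log2 expression values per probeset, a difference of 1 means a 2-fold level, and errors are standard deviations of 3 mice or standard errors of the model.

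Replication genes act early in the division of a cell. The MCM proteins form the ring that is loaded on replication origins and unwinds DNA, and Tyms makes the thymidylate needed for new DNA. Mitosis genes are transcribed later, once DNA has been copied, and many are switched on together through a promoter element called the cell cycle genes homology region (CHR), which is bound by the MuvB complex with B-Myb and Foxm1. Few cells of a healthy adult lung divide, so transcripts of both groups come from a small share of the tissue. In whole tissue, more dividing cells and more transcript per dividing cell cannot be told apart.

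Promoter letters were counted in both groups, since these genes are known to share such elements. RefSeq (GRCm38.p6) gave a promoter window of 300 bases, 250 before to 50 after the start, for 32 of the 37 genes, 27 of mitosis and 5 of replication. The core of the CHR, TTTGAA on either strand, was present in 21 of the 27 mitosis promoters (77.8%), in 1 of the 5 replication promoters (20.0%) and in 20.2% of the 27025 genes that have such a window. The CCAAT box, CCAAT on either strand, was present in 20 of the 27 mitosis promoters (74.1%), in 4 of the 5 replication promoters and in 41.1% of all genes. The CHR core and the CCAAT box together were found in 18 mitosis promoters (66.7%) and 1 replication promoter, against 7.97% of all genes. An E2F site, searched as TTTCCCGC, TTTGGCGC, TTTCGCGC or TTTGCCGC on either strand with overlaps allowed, was found in 3 replication promoters (60.0%), in 1 mitosis promoter (3.70%) and in 2.61% of all genes. A match of letters is a description of the sequence and no evidence of binding in these lungs.

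The 130 bases before the start are shown for 4 mitosis genes whose values are followed below and for 1 replication gene as contrast, read 5′ to 3′ on the gene's strand, with every complete CHR core, CCAAT box and E2F site in capitals. In these 4 mitosis genes a CHR core lies close before the start with at least 1 CCAAT box before it, on either strand. ATTGG is the CCAAT box read on the other strand, and TTCAAA the CHR core. This layout does not hold for many of the other mitosis genes. In Anln, Aurka, Bub1b, Cdca3, Cdca8, Cenpf, Kif23, Ndc80, Plk1, Racgap1 and Ttk the core lies only after the start. The Mcm6 stretch has overlapping E2F sites and no CHR core. Cdk1 is the mitosis gene with an E2F site, at 131 to 124 bases before the start, and the edge of its stretch cuts off the first base of this site, so that the rest stands in lower case. The stretches lie at chr10:69352913-69353042 (minus strand, Cdk1), chr11:99024190-99024319 (minus strand, Top2a), chr2:164769799-164769928 (plus strand, Ube2c), chr4:118437344-118437473 (minus strand, Cdc20) and chr1:128359706-128359835 (minus strand, Mcm6).
Cdk1: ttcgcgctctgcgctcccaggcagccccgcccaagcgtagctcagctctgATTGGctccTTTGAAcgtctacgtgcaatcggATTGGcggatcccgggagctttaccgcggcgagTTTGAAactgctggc
Top2a: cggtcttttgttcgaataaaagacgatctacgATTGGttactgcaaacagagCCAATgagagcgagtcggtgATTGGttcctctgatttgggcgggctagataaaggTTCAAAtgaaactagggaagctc
Ube2c: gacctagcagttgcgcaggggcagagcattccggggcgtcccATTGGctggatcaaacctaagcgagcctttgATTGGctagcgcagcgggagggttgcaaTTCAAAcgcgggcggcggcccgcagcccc
Cdc20: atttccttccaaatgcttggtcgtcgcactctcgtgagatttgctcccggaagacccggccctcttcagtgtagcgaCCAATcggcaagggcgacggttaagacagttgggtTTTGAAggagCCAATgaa
Mcm6: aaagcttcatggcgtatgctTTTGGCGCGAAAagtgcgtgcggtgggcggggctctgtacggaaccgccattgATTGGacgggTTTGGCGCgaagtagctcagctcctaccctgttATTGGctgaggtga

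Transcripts of the mitosis genes were lowest in C57BL/6J lungs and were highest in 1 CSS12 lung, and those of the replication genes showed no such order. For each gene, the mean over the 9 arrays was subtracted, and the remaining deviations were read per array. The median deviation of the 32 mitosis genes was -0.00, 0.66 and 0.01 in the CSS12 arrays, 0.10, -0.05 and 0.03 in the BcA86 arrays, and -0.29, -0.23 and -0.20 in the C57BL/6J arrays. Thus all 6 arrays of the hyperresponsive strains lay above all 3 C57BL/6J arrays, and replicate 2 of CSS12 lay far above every other array. In C57BL/6J, 1 of the 32 mitosis genes was above its own mean in each of the 3 arrays, compared with 15, 32 and 18 genes in the CSS12 arrays and 28, 6 and 21 genes in the BcA86 arrays. The median deviation of the 5 replication genes was -0.04, 0.12 and -0.00 in CSS12, 0.13, -0.10 and -0.16 in BcA86, and 0.02, 0.03 and 0.03 in C57BL/6J, so that the strains overlapped.

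**Figure D1:**
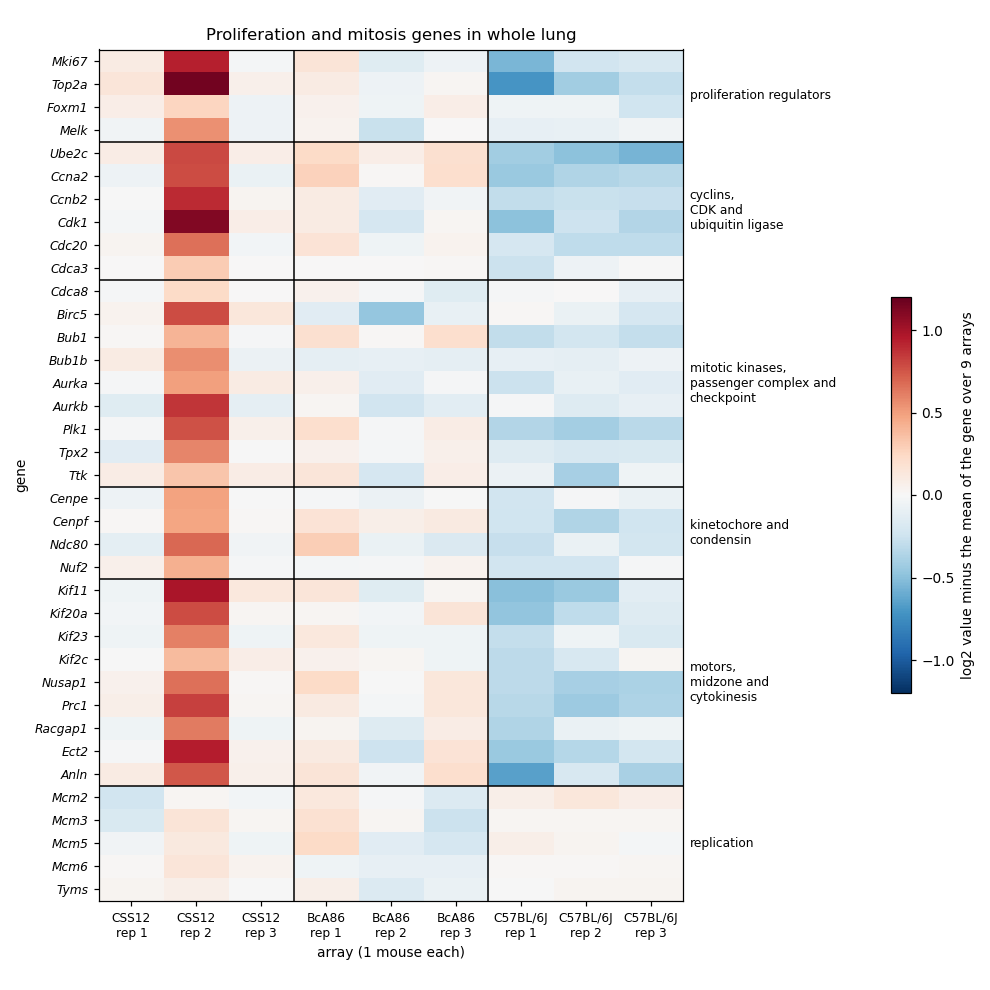
Log2 value of each measured gene (rows, by role) minus its mean over the 9 arrays, in every array (columns, 1 mouse each). The column of CSS12 replicate 2 is the highest of the 9 for all 32 mitosis genes, the C57BL/6J columns hold the lowest value for 27 of them, and the 5 replication genes at the bottom do not follow this order.

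CSS12 replicate 2 stood apart, and many of the counts and medians below are given with and without it. It was the highest of the 9 arrays for all 32 mitosis genes and for 2 of the 5 replication genes, 34 of 37 in all, whereas it was the highest for 11.4% of all probesets. Its distance above the mean of CSS12 replicates 1 and 3 had a median of 0.66 for the mitosis genes (0.24 to 1.08) and of 0.16 for the replication genes (0.06 to 0.23). For 31 of the 32 mitosis genes this distance was over 3 times the gap between replicates 1 and 3. The median standard deviation of a mitosis gene was accordingly 0.384 in CSS12, 0.108 in BcA86 and 0.106 in C57BL/6J. The methods of the study and the sample titles do not say whether all RNA was extracted at 1 time. The array medians lay between 6.08 and 6.13, but the normalization makes array distributions alike, so they could hardly differ. The weight that the array weighting gave to this array was 0.938, within the range of 0.644 to 1.60 over the 9 arrays. That weight is estimated over all probesets and does not speak to the mitosis genes alone. Why this lung stood apart was not tested.

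**Figure D2:**
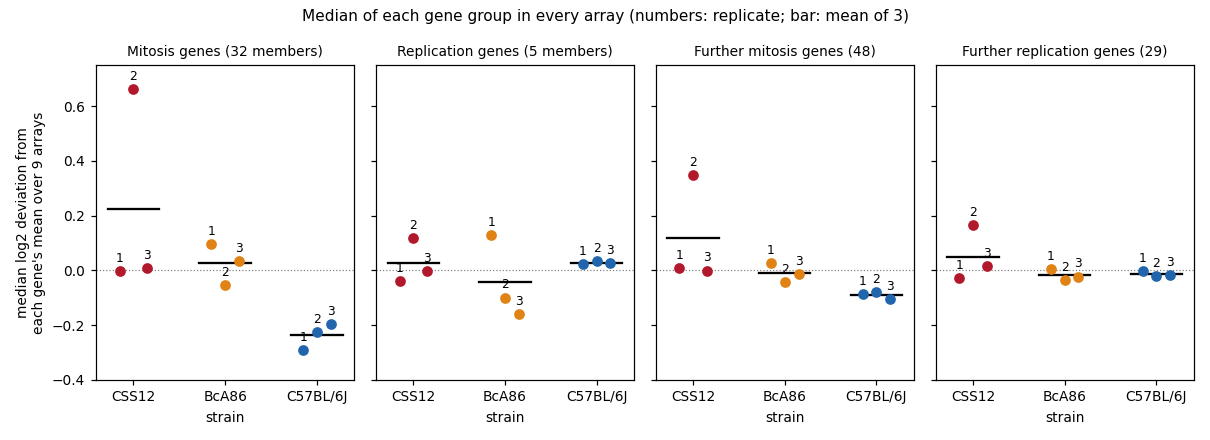
Median deviation in each array (points, numbered by replicate; bars, mean of 3 arrays; y axis, log2 units) for the 32 mitosis genes, the 5 replication genes and 2 longer lists of genes of the same processes. Mitosis genes separate the 3 C57BL/6J arrays (-0.29 to -0.20) from the other 6 (-0.05 to 0.66), and replication genes do not.

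No gene of the 37 passed the main test, which was limma over all probesets with an adjusted p under 0.05, in any comparison. The comparisons were CSS12 against C57BL/6J, BcA86 against C57BL/6J, CSS12 against BcA86, and the hyperresponsive strains together against C57BL/6J. Over all probesets that test called 0.220%, 0.375%, 0.716% and 0.302% of the 41345 in these comparisons. At an unadjusted p under 0.05, 20 of 37 genes were higher in CSS12 than in C57BL/6J (5.50% of all probesets were), 8 were higher in BcA86 than in C57BL/6J (5.20% of all), 2 were higher in CSS12 than in BcA86 (5.96% of all), and 16 were higher in the hyperresponsive strains together (4.86% of all). All of these were mitosis genes except Mcm6 in CSS12 against BcA86, and none of the 37 genes was lower at that level, beside 5.19%, 5.23%, 5.92% and 4.84% of all probesets. These counts depended on CSS12 replicate 2. Without it, 16 genes were higher in CSS12 than in C57BL/6J (4.91% of all), 17 in BcA86 (4.97% of all), 1 in CSS12 against BcA86 (5.43% of all) and 18 in the strains together (4.67% of all), and Ccna2 was then lower in CSS12 than in BcA86 (-0.23, unadjusted p = 0.0372, limma adjusted p = 0.417). The comparisons against C57BL/6J share the same 3 control arrays and are not independent of each other.

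Counted by arrays that do not overlap, 22 genes were higher in every CSS12 array than in every C57BL/6J array (7.56% of all probesets) and 16 were higher in every BcA86 array (6.77% of all). The same 16 genes separated all 6 hyperresponsive arrays from the 3 C57BL/6J arrays, where 2.35% of all probesets did so. All of these genes act in mitosis: Mki67, Top2a, Ube2c, Ccna2, Ccnb2, Cdk1, Cdc20, Cdca3, Bub1, Plk1, Tpx2, Cenpf, Kif20a, Nusap1, Prc1 and Anln. Between the hyperresponsive strains, 3 genes (Birc5, Bub1b and Mcm6) were higher in every CSS12 array than in every BcA86 array, against 9.85% of all probesets. These counts say nothing of CSS12 replicate 2, which was the highest of the 9 arrays for each gene counted upwards and so never set the lowest CSS12 value. In the other direction, Mcm6 was lower in every BcA86 array and Mcm2 lower in every CSS12 array than in every C57BL/6J array. The share of all probesets in this direction is not given here, so neither gene is read as a result about the group.

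The methods of the study named the Cyber-T test, in which the variance of a gene is drawn towards that of genes of like level. The study took p under 0.05 with a cut on the fold change, and its methods name no adjustment. Here an adjusted p was used without such a cut. With the Cyber-T test, 10 of 37 genes passed an adjusted p of 0.05 in CSS12 against C57BL/6J (1.40% of all probesets were called higher). Against C57BL/6J, 5 passed in BcA86 (1.32% of all) and 7 in the strains together (0.556% of all). In CSS12 against BcA86, 0 of 37 passed, where 926 of all 41345 probesets were called higher and 1247 lower. Nusap1, Ube2c, Plk1 and Anln were in all 3 of these counts. Ube2c, Ccna2 and Anln were also in the list of genes that the study chose on these arrays, so their direction here is not independent evidence of that choice.

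The mitosis genes differed from C57BL/6J by a median of 0.41 on the log2 scale in CSS12 and 0.23 in BcA86, and all 32 and 29 of 32 of them were above 0. The replication genes had medians of -0.02 in CSS12 and -0.08 in BcA86, and the medians over all probesets were 0.00 in CSS12, -0.00 in BcA86 and 0.00 for the strains together. For the strains together the median was 0.35 for the mitosis genes (0.05 to 0.73) and -0.04 for the replication genes (-0.14 to -0.02). Without CSS12 replicate 2, the mitosis median of CSS12 against C57BL/6J was 0.26 and that of the strains together was 0.24. The mitosis median of CSS12 minus BcA86 was 0.17 with all arrays and -0.01 without that array, so the median distance between the hyperresponsive strains rested on 1 mouse. Against C57BL/6J, the remaining CSS12 arrays and the BcA86 arrays gave similar medians, 0.26 and 0.23.

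**Figure D3:**
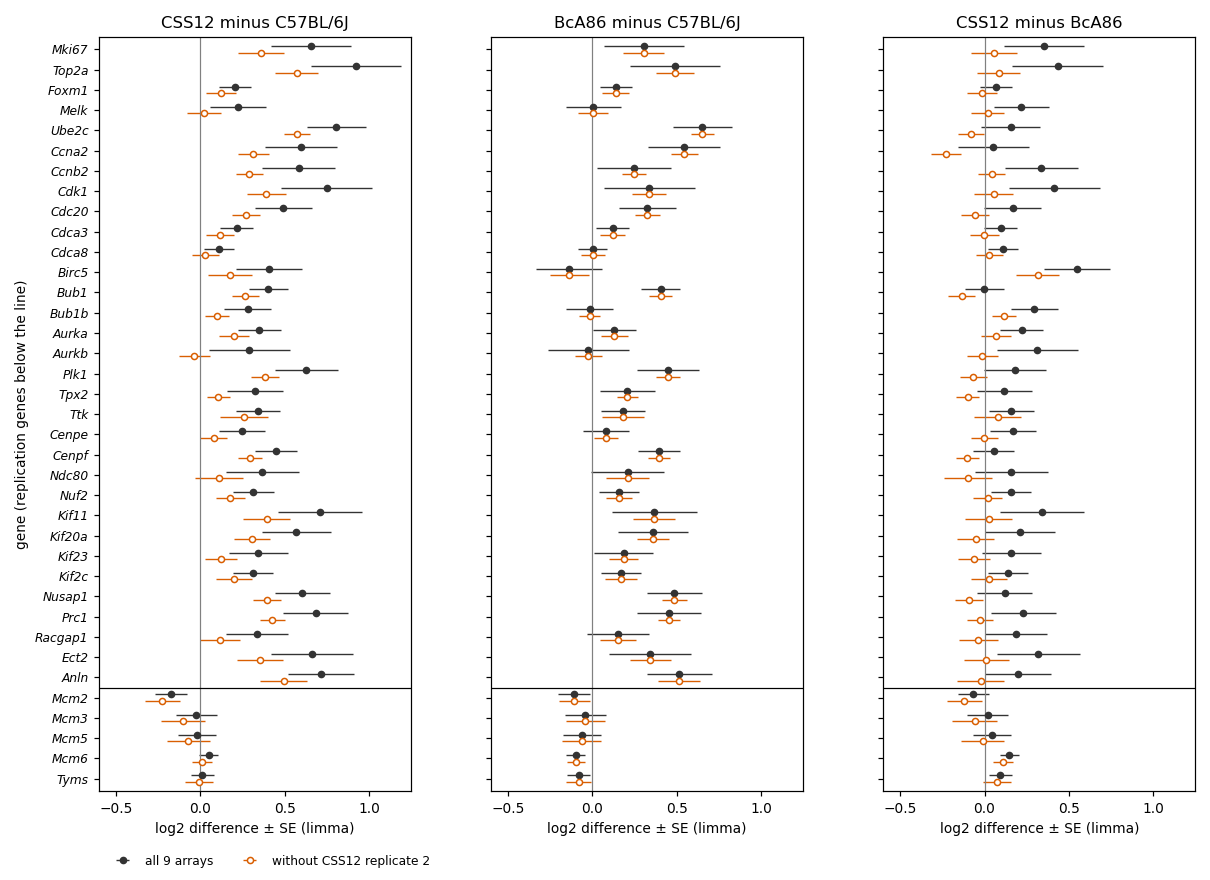
Log2 difference with its standard error (limma) for each gene in CSS12 minus C57BL/6J, BcA86 minus C57BL/6J and CSS12 minus BcA86, with all 9 arrays (filled) and without CSS12 replicate 2 (open). Without that array the mitosis genes in the first panel move towards 0, to a median of 0.26, and those in the third panel scatter about 0, with a median of -0.01.

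Among the proliferation regulators, Mki67 encodes the Ki-67 protein that coats mitotic chromosomes and is the usual marker of dividing cells. It had 7.99, 8.82 and 7.87 in CSS12 lungs, 8.05, 7.75 and 7.83 in BcA86 lungs, and 7.35, 7.66 and 7.70 in C57BL/6J lungs. The lowest hyperresponsive array was above the highest C57BL/6J array by a small margin. The difference from C57BL/6J was 0.66 in CSS12 (SE 0.237, limma adjusted p = 0.387) and 0.30 in BcA86 (SE 0.237, limma adjusted p = 0.699). Without CSS12 replicate 2 the difference of CSS12 was 0.36 (SE 0.136).

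Top2a, the topoisomerase that untangles sister chromatids, had 6.91, 7.92 and 6.82 in CSS12, 6.86, 6.71 and 6.79 in BcA86, and 6.05, 6.35 and 6.48 in C57BL/6J. Each hyperresponsive array exceeded each C57BL/6J array, and the CSS12 mean of 7.22 ± 0.61 was pulled up by 1 mouse, beside 6.78 ± 0.08 in BcA86 and 6.30 ± 0.22 in C57BL/6J (SD, n = 3 each). The difference of the strains together was 0.71 (SE 0.233, a 1.63-fold difference, limma adjusted p = 0.377). In CSS12 it was 0.92 (SE 0.269), and 0.57 (SE 0.127) without replicate 2. Foxm1, the transcription factor that drives mitosis genes, and Melk, a mitotic kinase, overlapped between strains, with differences of the strains together of 0.17 and 0.11.

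All 6 measured genes of the cyclin, kinase and ubiquitin ligase group separated the 6 hyperresponsive arrays from the 3 C57BL/6J arrays. Their median difference was 0.48 for the strains together, 0.59 in CSS12 and 0.33 in BcA86, and without CSS12 replicate 2 it was 0.33 for the strains together and 0.30 in CSS12. Ube2c encodes the ubiquitin-conjugating enzyme of the anaphase-promoting complex, and it had the lowest adjusted p of the 37 genes. Its values were 7.38, 8.08 and 7.37 in CSS12, 7.52, 7.37 and 7.48 in BcA86, and 6.88, 6.80 and 6.73 in C57BL/6J. The gap between the groups, from 7.37 down to 6.88, was larger than the whole range within BcA86 or within C57BL/6J. The difference of the strains together was 0.73 (SE 0.154, 1.66-fold, limma adjusted p = 0.148). In CSS12 it was 0.81 (SE 0.177, limma adjusted p = 0.175) and in BcA86 0.65 (SE 0.177, limma adjusted p = 0.244).

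Ube2c was the only gene of the 37 called by limma when an array was left out. Without CSS12 replicate 2 it was called higher in BcA86 (0.65, SE 0.0682, limma adjusted p = 0.0200) and in the strains together (0.61, SE 0.0615, limma adjusted p = 0.0288), and not in CSS12 alone (0.57, SE 0.0763, limma adjusted p = 0.0884). The BcA86 difference itself does not use the CSS12 arrays, and what differed was the shared estimate of the spread.

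Ccna2, the cyclin of DNA replication and mitotic entry, had 7.14, 7.98 and 7.12 in CSS12, 7.47, 7.21 and 7.39 in BcA86, and 6.75, 6.83 and 6.86 in C57BL/6J. CSS12 replicates 1 and 3 lay below all BcA86 lungs and above all C57BL/6J lungs. Its difference for the strains together was 0.57 (SE 0.184, limma adjusted p = 0.365). Cdk1, the kinase that starts mitosis, had 7.49, 8.61 and 7.58 in CSS12, 7.61, 7.30 and 7.53 in BcA86, and 7.02, 7.26 and 7.16 in C57BL/6J. The separation from C57BL/6J was narrow in 1 BcA86 lung. Its CSS12 replicate 2 lay 1.08 above the other CSS12 lungs, the longest distance of the 37 genes. Cdk1 differed by 0.41 between CSS12 and BcA86 (SE 0.270, limma adjusted p = 0.618), and by 0.05 (SE 0.115) without that array.

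Ccnb2, a B-type cyclin, had the tightest C57BL/6J values of this group, 7.74, 7.77 and 7.77, with 8.04, 8.93 and 8.07 in CSS12 and 8.13, 7.90 and 7.99 in BcA86. Cdc20 activates the anaphase-promoting complex, and its difference for the strains together was 0.41 (SE 0.148). Cdca3, a trigger of mitotic entry, separated the groups only at the second decimal, with 6.00, 6.30 and 6.00 in CSS12, 6.00, 6.00 and 6.01 in BcA86, and 5.74, 5.93 and 5.99 in C57BL/6J. Like Cdca3, 16 of the 37 genes repeated a value exactly in 2 or more arrays.

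**Figure D4:**
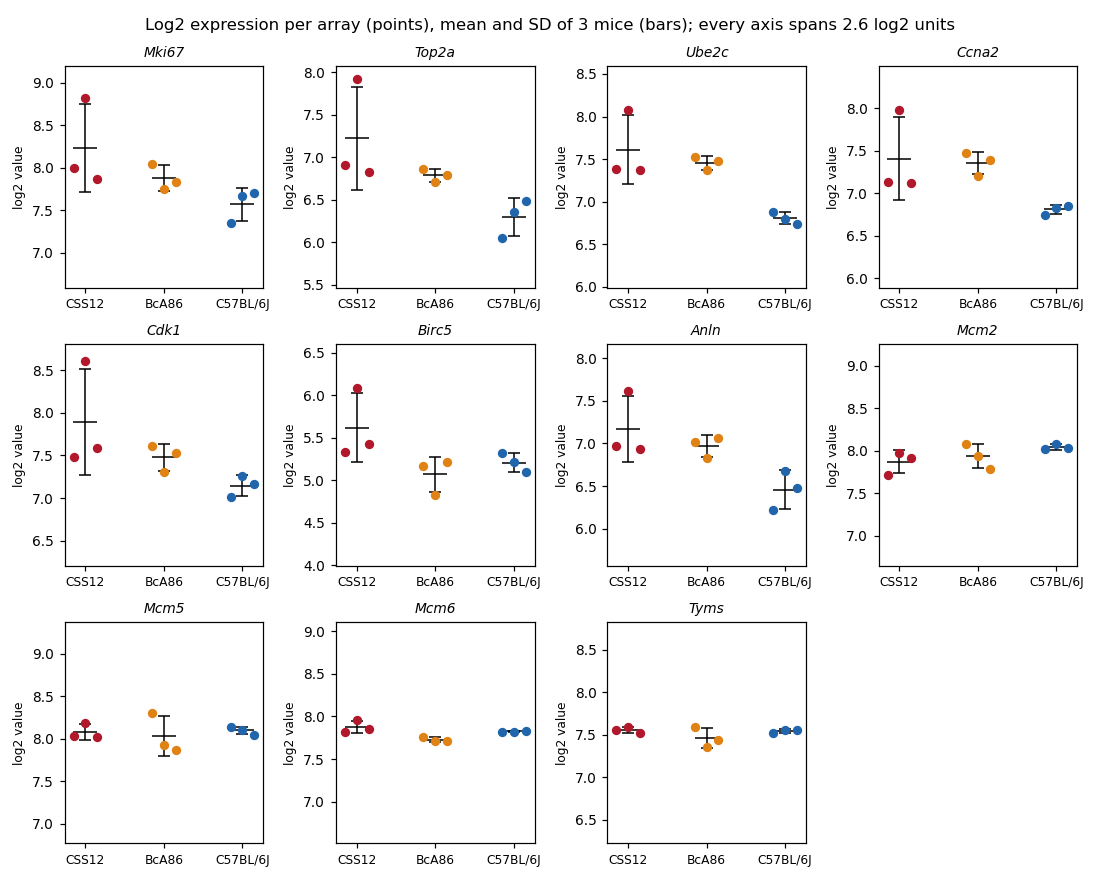
Log2 values of 11 genes in each array (points) with mean and standard deviation of 3 mice (bars), for CSS12, BcA86 and C57BL/6J, every axis spanning the same range. Ube2c and Top2a separate the 6 hyperresponsive lungs from the 3 C57BL/6J lungs, and Birc5 separates CSS12 (5.34 to 6.08) from BcA86 (4.83 to 5.21). The strain means of Mcm2, Mcm5, Mcm6 and Tyms differ little, while Mcm5 ranges from 7.87 to 8.30 within BcA86.

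Genes of the mitotic kinases, the chromosomal passenger complex and the spindle checkpoint were less uniform. Their median difference was 0.24 for the strains together (0.16 without CSS12 replicate 2), and 3 of the 9 genes (Bub1, Plk1 and Tpx2) separated the 6 hyperresponsive lungs from C57BL/6J. Bub1, a checkpoint kinase at the kinetochore, had 6.49, 6.88 and 6.46 in CSS12, 6.67, 6.49 and 6.68 in BcA86, and 6.18, 6.25 and 6.19 in C57BL/6J. Its difference was 0.40 in CSS12 and 0.40 in BcA86 (SE 0.116 each), and for the strains together limma gave an adjusted p of 0.219. Plk1, the polo kinase of mitotic entry and exit, had 6.88, 7.65 and 6.95 in CSS12, 7.09, 6.88 and 6.98 in BcA86, and 6.54, 6.49 and 6.57 in C57BL/6J. These values left a clear gap, and the difference for the strains together was 0.54 (SE 0.161, limma adjusted p = 0.312).

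The passenger complex genes Birc5, Aurkb and Cdca8 differed from C57BL/6J by -0.14, -0.02 and 0.00 in BcA86. Birc5, which encodes survivin, had 5.34, 6.08 and 5.43 in CSS12, 5.16, 4.83 and 5.21 in BcA86, and 5.32, 5.22 and 5.09 in C57BL/6J. BcA86 lungs overlapped with C57BL/6J lungs, and all CSS12 lungs lay above both. The difference of CSS12 minus BcA86 was 0.55 (SE 0.196, unadjusted p = 0.0231, limma adjusted p = 0.308), the largest of the 37 genes in that comparison. Without replicate 2 it was 0.31 (SE 0.129, limma adjusted p = 0.444). Aurkb, the kinase of the complex, had 7.31, 8.31 and 7.35 in CSS12, 7.48, 7.22 and 7.32 in BcA86, and 7.44, 7.30 and 7.35 in C57BL/6J, so 8 of the 9 lungs lay between 7.22 and 7.48. Cdca8, the borealin subunit, had differences of 0.11 in CSS12 and 0.00 in BcA86. Without CSS12 replicate 2, CSS12 differed from C57BL/6J by 0.18 for Birc5, -0.04 for Aurkb and 0.03 for Cdca8.

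Bub1b, the checkpoint protein BubR1, had 6.77, 7.23 and 6.60 in CSS12, 6.57, 6.58 and 6.57 in BcA86, and 6.58, 6.57 and 6.61 in C57BL/6J. The BcA86 and C57BL/6J lungs were nearly identical, and CSS12 minus BcA86 was 0.30 (SE 0.141, limma adjusted p = 0.467). Aurka, the spindle pole kinase, Tpx2, its activator on the spindle, and Ttk, the kinase that starts the checkpoint, had differences for the strains together of 0.24, 0.26 and 0.26.

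The kinetochore links chromosomes to the spindle, and 4 of its genes were measured. Their median difference was 0.26 for the strains together, and 0.16 without CSS12 replicate 2. Cenpf, a large kinetochore protein, had 5.76, 6.23 and 5.76 in CSS12, 5.92, 5.82 and 5.85 in BcA86, and 5.51, 5.38 and 5.51 in C57BL/6J. All hyperresponsive lungs exceeded all C57BL/6J lungs, with a difference of 0.42 (SE 0.107, limma adjusted p = 0.230). Ndc80 and Nuf2, which form the microtubule-binding complex together, and Cenpe, a kinetochore motor, overlapped between the strains, with differences of 0.29, 0.24 and 0.16.

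Genes of motors, the spindle midzone and cytokinesis had a median difference of 0.50 for the strains together, 0.60 in CSS12 and 0.36 in BcA86, and all 9 were above 0 in both. Without CSS12 replicate 2 the median was 0.35 for the strains together and 0.35 in CSS12. Of these, 4 (Kif20a, Nusap1, Prc1 and Anln) separated the 6 hyperresponsive lungs from C57BL/6J. Anln encodes anillin, a scaffold of the contractile ring. It had 6.97, 7.61 and 6.93 in CSS12, 7.02, 6.83 and 7.07 in BcA86, and 6.22, 6.68 and 6.47 in C57BL/6J. Its C57BL/6J lungs spread more widely than its BcA86 lungs, and the difference for the strains together was 0.61 (SE 0.168, 1.53-fold, limma adjusted p = 0.268). Prc1, which bundles microtubules at the midzone, averaged 7.17 ± 0.45 in CSS12, 6.94 ± 0.08 in BcA86 and 6.48 ± 0.05 in C57BL/6J (SD, n = 3 each). Nusap1, a microtubule-stabilizing spindle protein, had a difference of 0.54 (SE 0.141, limma adjusted p = 0.242). Kif11, the motor that separates spindle poles, had a BcA86 lung (6.43) just below its highest C57BL/6J lung (6.44), with a difference of 0.54 (SE 0.217). Ect2 and Racgap1 set up the division furrow, Kif23 and Kif20a are midzone motors and Kif2c depolymerizes microtubules, and their differences ranged between 0.24 (Kif2c) and 0.50 (Ect2).

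The replication genes gave small differences. All 5 were below 0 for the strains together and in BcA86, and 2 of the 5 were above 0 in CSS12 (1 without replicate 2). Mcm2 had 7.72, 7.98 and 7.92 in CSS12, 8.08, 7.94 and 7.79 in BcA86, and 8.02, 8.08 and 8.03 in C57BL/6J. C57BL/6J lungs were close together and at the top of the range, and the difference for the strains together was -0.14 (SE 0.0819, limma adjusted p = 0.643). Mcm5 had 8.03, 8.19 and 8.02 in CSS12, 8.30, 7.93 and 7.87 in BcA86, and 8.14, 8.10 and 8.05 in C57BL/6J, and the strains overlapped (difference -0.04, SE 0.0984). Mcm3 had a difference of -0.03 for the strains together.

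Mcm6, whose promoter is shown above, had 7.82, 7.95 and 7.85 in CSS12, 7.76, 7.71 and 7.71 in BcA86, and 7.82, 7.82 and 7.83 in C57BL/6J. The BcA86 lungs were below all the others, and CSS12 minus BcA86 was 0.15 (SE 0.0569, unadjusted p = 0.0313, limma adjusted p = 0.356). Tyms had 7.56, 7.59 and 7.52 in CSS12, 7.59, 7.36 and 7.44 in BcA86, and 7.52, 7.56 and 7.56 in C57BL/6J, and its CSS12 and BcA86 lungs overlapped (difference 0.09, SE 0.0699, limma adjusted p = 0.672).

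Further genes of the cell cycle were listed apart from the 39. Of 48 further mitosis genes, 43 were above 0 for the strains together, with a median of 0.17. In limma, 11 of them upwards and 1 downwards had an unadjusted p below 0.05, beside 4.86% and 4.84% of all probesets. Without CSS12 replicate 2 the median was 0.10, with 8 upwards (4.67% of all probesets) and 1 downwards (1840 of all 41345 probesets). Of the 48, 6 separated the hyperresponsive lungs upwards from C57BL/6J, beside 2.35% of all probesets. In the other direction 1 did so, for which the share of all probesets is not given here. None of the 48 passed the adjusted test. Depdc1a, a mitotic regulator, had the lowest adjusted p of them (0.44, SE 0.101, limma adjusted p = 0.195). Stil, a centriole assembly factor, and Ckap2, a spindle protein, had differences of 0.40 each. Of 29 further replication genes, 14 were above 0, with a median of -0.00, and Pole2, a subunit of the leading-strand polymerase, had the largest difference (0.27, SE 0.0816, limma adjusted p = 0.320). The 15 genes of entry into the cycle had a median of 0.13 (0.07 without CSS12 replicate 2), led by E2f8, a late repressor of the E2F family (0.25, SE 0.179).

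The inhibitors of the cycle had a median of 0.05 over 17 genes, and their mean deviation was above that of all 3 C57BL/6J arrays in all 6 hyperresponsive arrays. Cdkn1a, which encodes the p21 inhibitor of cyclin-dependent kinases, had 0.68 for the strains together (SE 0.109, limma adjusted p = 0.0595). This value did not pass the test. Trp53inp1, a target of p53, had 0.36 (SE 0.0649, limma adjusted p = 0.0905). Btg2, an antiproliferative gene, had -0.31 (SE 0.144, limma adjusted p = 0.538). No gene of these 4 lists passed the adjusted test in any of the 4 comparisons. For the strains together, limma gave an unadjusted p below 0.05 to 2 further replication genes and 3 genes of entry into the cycle, all above 0, and to 5 inhibitors, 4 above 0 and 1 below, beside 4.86% of all probesets above 0 and 4.84% below. For the 29 further replication genes this was close to the share over all probesets.

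The genes outside the 39 whose values followed the mean profile of the mitosis genes most closely over the 9 arrays were Mink1 (Pearson r = 0.974), Prr11 (0.972) and Arhgap11a (0.970). Mink1 is a kinase of stress signalling. Without CSS12 replicate 2, which all these profiles share as their highest point, r was 0.896, 0.871 and 0.916. These are descriptions of 9 arrays, picked from all probesets with 1 symbol.

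Markers of cells that lung can hold were read beside the mitosis genes. Alveolar type 2 markers averaged between 12.4 and 12.6 in all 9 arrays and alveolar type 1 markers between 11.2 and 11.3. Xist lay between 4.35 and 4.69 and Uty between 8.25 and 8.58 in all 9. In CSS12 replicate 2, where the mitosis genes deviated by a mean of 0.66, the 7 macrophage markers deviated by a mean of 0.46 (6 of 7 above their own mean), the 4 germinal centre B cell markers by 0.25 (3 of 4) and the 6 T cell markers by 0.22 (6 of 6). The 6 plasma cell markers had a mean of 0.30 there but a median of 0.01, with 3 of 6 above their own mean. Chil3, a secreted macrophage protein, reached 12.5 in that lung, against 10.8 and 10.7 in the other CSS12 lungs, and Marco, a macrophage receptor, was lower there (6.29) than in those lungs (6.69 and 6.70). Irf4, a factor of plasma cells and activated macrophages, reached 7.72 there, against 6.34 and 6.59. The 7 measured of 9 listed macrophage markers averaged 9.25 to 9.81 in CSS12 lungs, 9.21 to 9.29 in BcA86 lungs and 9.16 to 9.46 in C57BL/6J lungs. The part of such cells in the high mitosis values of that lung was not tested.

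Of 17 lists of markers, sex-linked genes among them, 2 had a mean deviation that was higher in all 6 hyperresponsive arrays than in all 3 C57BL/6J arrays, as the mitosis genes had. The 4 germinal centre B cell markers deviated by 0.10, 0.25 and 0.08 in CSS12, 0.07, 0.02 and 0.00 in BcA86, and -0.26, -0.07 and -0.19 in C57BL/6J, with CSS12 replicate 2 the highest. Only Fas, a death receptor also made by many other cells, separated the strains among these 4, with 8.84, 9.15 and 9.11 in CSS12, 8.66, 8.63 and 8.63 in BcA86, and 7.86, 8.36 and 8.24 in C57BL/6J. The 8 erythroid markers deviated by a mean of -0.07, 0.14 and 0.12 in CSS12, 0.03, 0.07 and 0.14 in BcA86, and -0.11, -0.13 and -0.20 in C57BL/6J. By the median of the list, the germinal centre B cell markers kept this order and the erythroid markers did not. Neutrophil and B cell markers had another order. The 9 neutrophil markers deviated by a mean of -0.45, -0.59 and -0.83 in CSS12 and by 0.51, 0.25 and 0.47 in BcA86. In C57BL/6J they deviated by 0.12, 0.71 and -0.20, so BcA86 and C57BL/6J overlapped. The 7 B cell markers deviated by -0.25, -0.23 and -0.74 in CSS12 and by 0.22, 0.46 and 0.06 in BcA86. Their C57BL/6J values of 0.50, -0.18 and 0.16 overlapped with those of BcA86. Of the erythroid markers, Alas2, the first enzyme of haem synthesis in red cell precursors, was higher in CSS12 (1.17, SE 0.114, limma adjusted p = 0.0105) and in BcA86 (1.13, SE 0.114, limma adjusted p = 0.00755), while the median difference of the 8 was 0.00 for the strains together. The part of these cells in the mitosis values was not tested.

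**Figure D5:**
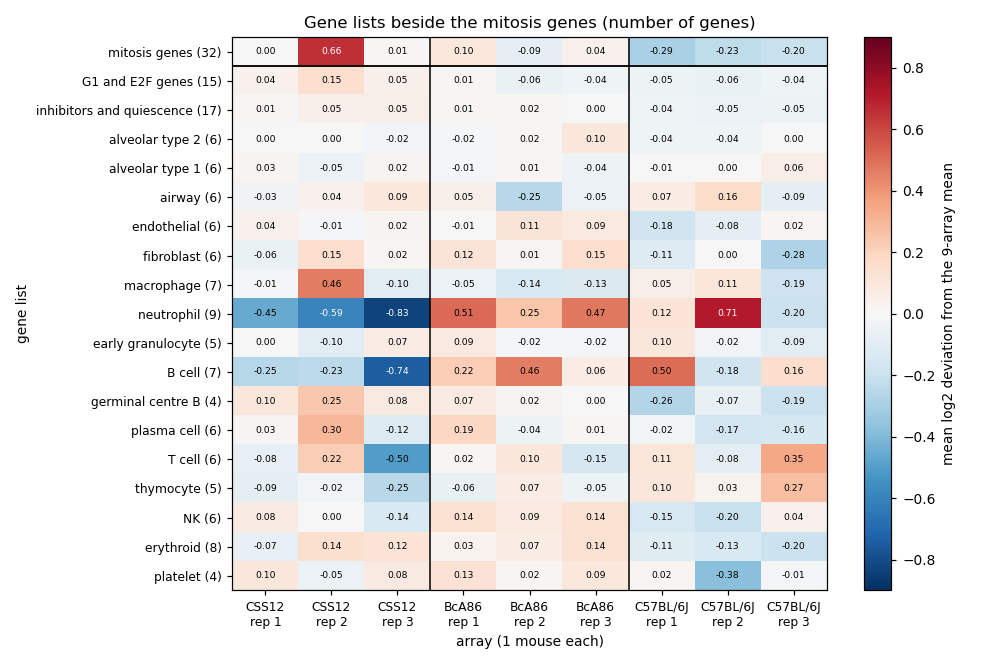
Mean log2 deviation from the 9-array mean for the 32 mitosis genes (top row) and lists of cell cycle and cell type genes (rows, number of genes in brackets) in each array (columns). CSS12 replicate 2 is high for the mitosis genes (0.66) and macrophage markers (0.46). By these means, germinal centre B cell and erythroid markers are lowest in the 3 C57BL/6J arrays. By the median of the list, the erythroid markers do not keep this order. Neutrophil markers are low in all 3 CSS12 arrays, high in all 3 BcA86 arrays and mixed in C57BL/6J (-0.20 to 0.71).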

How the data were processed

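RNA from whole lung of 9 mice was measured on Gene 2.0 ST arrays (Affymetrix). The authors used RMA within FlexArray for normalization and deposited log2 values, which here lay between 1.29 and 13.7. The FlexArray version is not given in the sources used here. RMA fits probes over all arrays together and makes array distributions alike, so a shift of all genes would not be seen. No further normalization or filter was applied. Probesets were named by the platform annotation where it gave 1 symbol (23521 probesets), and 1820 with several symbols were not used. Strains were compared with limma 3.58.1 (R 4.3.3) in 1 model of 9 arrays, with Benjamini-Hochberg adjustment over 41345 probesets and a threshold of 0.05, and the script was tested on simulated data. For Cyber-T, the prior weight was 10 and each window held 101 probesets. Replicates were different mice. Dim probesets were those under the 30th percentile of mean value. The genes and lists were chosen with earlier results of these data known. Values in every array were given, by rule, for Mki67 and Top2a. The rule also took the 4 mitosis and 2 replication genes that differed most in CSS12 against BcA86 and in the strains together against C57BL/6J. Up to 3 genes of each further cell cycle list were named by rule, with their fitted differences only. Single values of other genes were chosen after these were seen. Gene positions and promoters are from RefSeq, GRCm38.p6. The alternatives are given in the closing section.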

Additional observations from a re-analysis of the deposited data

Results flagged for a closer look

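Bub1b, a spindle checkpoint gene, differed by 0.296 on the log2 scale between CSS12 and BcA86. It was singled out because each of the 3 CSS12 lungs lay above the C57BL/6J mean of 6.59 and each of the 3 BcA86 lungs below it. The BcA86 lungs (6.57, 6.58 and 6.57) were within 0.02 of that mean, and this rule involves no test of the difference. In limma the difference of CSS12 minus BcA86 had SE 0.141 and an adjusted p of 0.467, and without CSS12 replicate 2 it was 0.115 (SE 0.0703).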

How the results depend on the processing

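Limma called 0 of 37 genes in all 4 comparisons with trended and robust variances, the compared strains alone, without the dim probesets, after centring each array on its median, or with array weights. The Cyber-T test called 10 genes in CSS12 against C57BL/6J, 5 in BcA86 and 7 in the strains together. With each array left out, the count was between 0 and 1 in BcA86 and between 0 and 1 in the strains together, and the 1 was Ube2c without CSS12 replicate 2. In the fit with a replicate block, 0 of 37 genes were called in every comparison and Ube2c for the strains together had 0.73 (limma adjusted p = 0.228). At an unadjusted p under 0.05, leaving out CSS12 replicate 2, chosen after seeing the data, gave 17 genes higher in BcA86 than in C57BL/6J, beside 8 with all arrays, and 1 in CSS12 against BcA86, beside 2. Same-numbered arrays did not deviate together (correlations of -0.11 to 0.15), so the numbers were not treated as pairs. The block cut the calls over all probesets to 27, 60, 136 and 49, beside 91, 155, 296 and 125 without it, in CSS12, BcA86, CSS12 against BcA86 and the strains together. The replication median of CSS12 minus BcA86 was between -0.0367 and 0.158 with each array left out, and 0.158 without BcA86 replicate 1, beside 0.04 with all arrays. The mitosis median of CSS12 minus BcA86 was between -0.01 and 0.30, lowest without CSS12 replicate 2, and 0.30 and 0.28 without CSS12 replicates 1 and 3. The genes named by rule kept their direction in all of these settings. Each of the 37 genes had 1 probeset with its symbol alone, so a mean over such probesets gives the same values; probesets shared with other symbols, 2 for Top2a and 1 each for Nusap1, Tyms and Ncapg, were not used, and a rule that admits them was not run. With 3 lungs per strain, and 1 of them apart in CSS12, an adjusted p over the threshold does not show that values were equal.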
